A study of Mus musculus with 4 samples.

Results

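Inner cell mass (ICM) was compared with trophectoderm (TE) in mouse embryos at the time labelled D10, over the protein-coding genes. The libraries were taken by their names in the count table, 5 of D10 ICM and 5 of D10 TE, which are 10 of the 20 libraries of the study. The 5 E4 ICM and 5 E4 TE libraries serve here to show where the D10 difference departs from the earlier one. As all 20 libraries were fitted together, they also enter the gene filter, the scaling and the estimate of spread behind the D10 calls. All embryos were wild type, from B6D2F1 males mated to ICR females, and the D10 embryos carried no zona pellucida, the glycoprotein shell from which a blastocyst hatches. Of the E4 litters, replicates 1 and 2 are labelled with this shell and replicates 3 to 5 without it. Each ICM library has a TE library of the same litter, and the 5 D10 litters are numbered here as replicates 1 to 5. The labels call the dissected tissue the embryonic side and the extra-embryonic side, and whether a library holds 1 embryo or several is not stated. The sources conflict on the stage: D10 is day 6 in the deposited barcode list, the title of the series contrasts times on either side of diapause, and the protocol describes every embryo as in diapause.

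Diapause is a reversible arrest in which a blastocyst waits in the uterus without implanting. The blastocyst then has an outer epithelium, the trophectoderm, which pumps fluid into the cavity and later makes the placenta. Inside lies the inner cell mass, which holds the epiblast, source of the embryo proper, and the primitive endoderm, source of the yolk sac. The embryonic side therefore holds at least epiblast and primitive endoderm, and trophectoderm markers were counted in it too, as given below. In such bulk libraries fewer cells of a type and less RNA per cell cannot be told apart.

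RNA was read from the 3′ ends of transcripts, and levels are given as counts per 1000000 of the scaled library size (CPM). Total counts ran from 215055 to 1010354 in the D10 ICM libraries and from 449524 to 579016 in the D10 TE libraries. The replicates of a group were amplified as 1 pool, so pool and tissue cannot be told apart. The Y-linked gene Ddx3y stood at 175.2 and 124.6 CPM in D10 ICM replicates 3 and 5 and at 155.7 and 109.9 CPM in their TE partners, and at 4.55 CPM or less in the other 6 libraries. D10 ICM replicate 4, the deepest library, stood apart from the other 4. In it 10 protein-coding genes were at 50 CPM or more and at least 10 times the highest of the other ICM libraries, against 0 in each of the other D10 ICM libraries and 0 to 2 in each D10 TE library.

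Of 6680 protein-coding genes tested, 924 (13.8%) were higher in the D10 ICM and 929 (13.9%) were higher in the D10 TE. The counts were alike, but the sizes were not. A log2 difference of 3 or more was found for 156 genes higher in the ICM and for 39 higher in the TE, and one of 4 or more for 98 and 13. The median log2 difference was 1.33 among the genes higher in the ICM, -1.19 among those higher in the TE and -0.0058 over all genes tested. The test was edgeR's quasi-likelihood test with litter as a block and Benjamini-Hochberg adjustment, called at an adjusted p under 0.05, and log2 differences are ICM minus TE with their standard error. As the labels do not say how many embryos a library holds, p-values measure only the spread between these libraries. The direction was seen in 5 of 5 litters for 804 of the 924 and 816 of the 929. As these genes were called within litters from the same libraries, such agreement is largely built in. All 5 ICM libraries lay above all 5 TE libraries for 533 genes (7.98%), and all TE above all ICM for 559 (8.37%). Over the whole table, 84 protein-coding genes had at least 20 counts in the D10 ICM and 0 in the D10 TE, against 9 the other way round. The number of calls depends on depth, since libraries thinned to the smallest total gave 485 and 517.

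**Figure D1:**
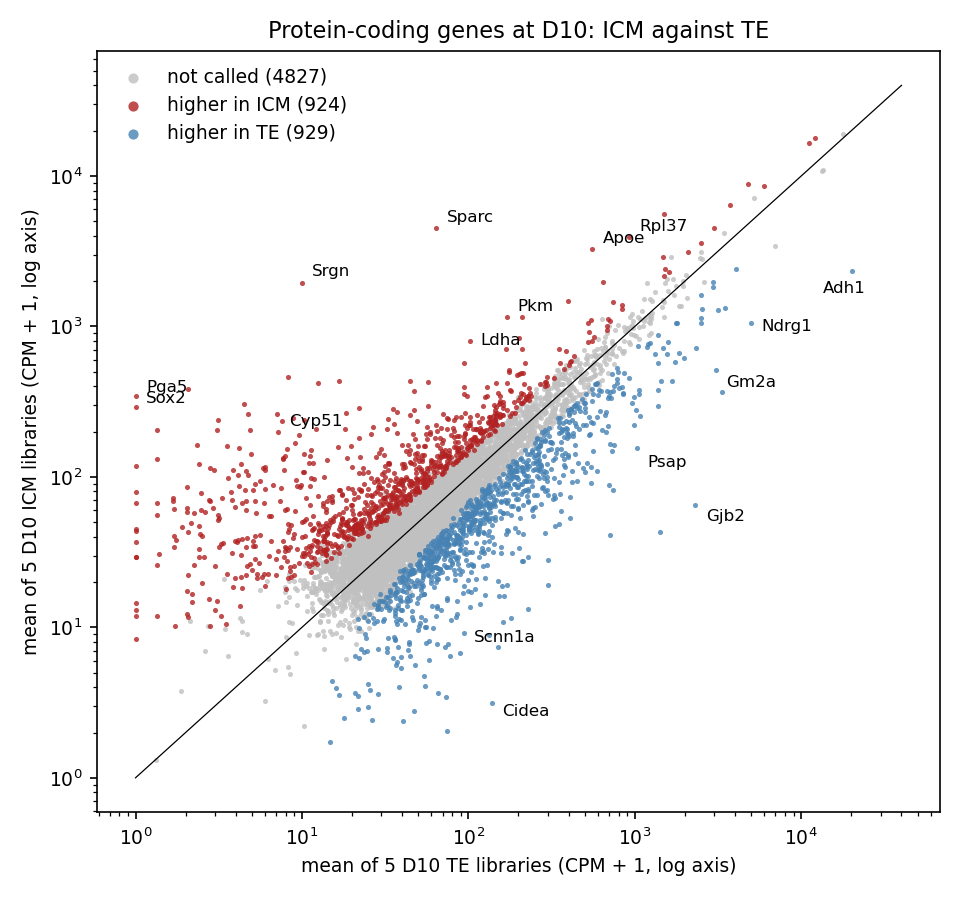
Mean level of each tested protein-coding gene over the 5 D10 TE libraries (horizontal) and the 5 D10 ICM libraries (vertical), in CPM plus 1 on log axes, with equality as a line. Red points (924) were called higher in the ICM and blue points (929) higher in the TE; the red points spread further from the line, and many sit at or near 0 in the TE.

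The tissue labels were checked against marker genes. The 14 epiblast markers summed to 1986 to 2615 CPM in the ICM libraries (median 2242) and 919.8 to 1469.6 in the TE libraries (median 949.4). The 12 primitive endoderm markers summed to 7165 to 11779 CPM in the ICM (median 8968) and 391.7 to 1312 in the TE (median 482.5), where replicate 1 was the highest. The 14 trophectoderm markers summed to 3667 to 6162 CPM in the ICM (median 4240) and 8744 to 11243 in the TE (median 9863). The groups did not overlap in any of the 3 sums. Of the primitive endoderm markers, Sparc and Srgn had the most ICM counts (11706 and 5674). Sox2, Tdgf1, Fgf4, Gdf3 and Sox7 had 0 counts over the 5 TE libraries. Trophectoderm markers, in contrast, were counted in every ICM library, with 12 to 14 of the 14 present. The TE sum of epiblast markers came mainly from Dppa5a, Tfcp2l1 and Zfp42, none of which was called between the tissues (log2 -0.43, 0.20 and -0.27). Pou5f1, a defining gene of the pluripotent lineage, is listed with 1 count over the 10 D10 libraries, so it marks nothing here. How far trophectoderm cells or RNA in the ICM libraries bear on the differences below was not tested.

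**Figure D2:**
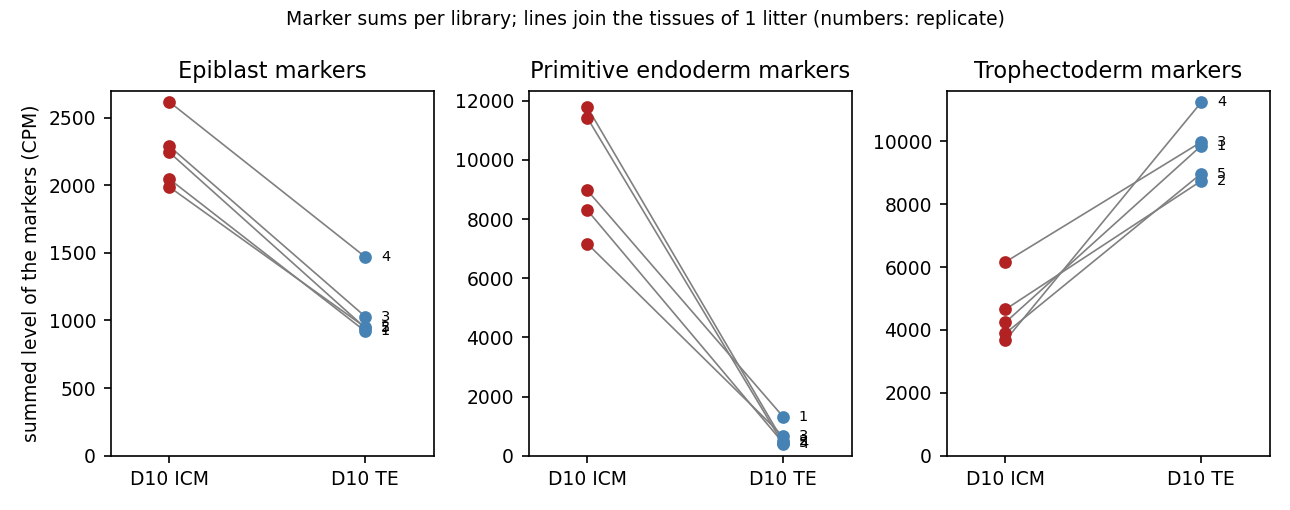
Summed level of the epiblast (14), primitive endoderm (12) and trophectoderm (14) markers in CPM for each D10 library, ICM in red and TE in blue, with lines between the tissues of 1 litter. Each line falls for the epiblast and primitive endoderm sums and rises for the trophectoderm sum; TE replicate 1 has the highest primitive endoderm sum of the TE libraries (1312 CPM).

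Epiblast genes were higher in the ICM. Of 33 tested members of the epiblast list 24 were higher, 2 were lower and 7 were not called, with a median log2 difference of 3.38. Sox2 (ENSMUSG00000074637, GRCm38 chromosome 3, 34650405 to 34652461, plus strand), which helps keep cells pluripotent, stood at 191, 180.0, 414, 113 and 552 CPM in D10 ICM replicates 1 to 5 and had 0 counts in each TE library. With 470 counts against 0 it was at least 179.1-fold higher, taking 3 counts over the TE group as the floor. Tdgf1, a co-receptor for Nodal, stood at 114, 137, 37.2, 181 and 120.1 CPM in the ICM and at 0 in each TE library, at least 124.2-fold higher. Nanog, a further pluripotency factor, was low, at 72.9, 22.1, 26.5, 9.05 and 31.1 CPM in the ICM, against 1.75, 1.95, 0, 3.35 and 0 CPM in the TE. Its libraries did not overlap (log2 4.02 ± 0.65, adjusted p = 7.40e-05). Its size rested on few counts, 51 in the ICM libraries together and 4 in the TE libraries.

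Lefty2, a secreted inhibitor of Nodal, varied widely, at 588, 175, 26.5, 48.3 and 182 CPM in the ICM libraries. It had 334 ICM counts and 1 TE count, a ratio of 381.7 with a 95% counting interval of 68.04 to 15122. Such ratios and intervals, here and below, pool the counts of a group. The intervals therefore leave out the spread between litters and are too narrow as a measure of it. Dppa2 stood at 178, 193, 95.5, 233 and 329 CPM in the ICM, against 12.2, 11.7, 1.92, 16.7 and 13.1 CPM in the TE (log2 4.14 ± 0.29, adjusted p = 3.76e-09). Tet1, an enzyme that oxidizes methylated cytosine, was at 173, 45.8, 53.1, 56.3 and 178 CPM in the ICM, against 6.99, 3.91, 1.92, 3.35 and 2.62 CPM in the TE (log2 4.51 ± 0.33). The groups did not overlap for any of these 3 genes. The 2 members lower in the ICM were Mkrn1 (log2 -0.88 ± 0.18) and Tet2, a relative of Tet1 (log2 -1.31 ± 0.29, adjusted p = 0.00152), and for both the groups overlapped.

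Most primitive endoderm genes were higher in the ICM, some of them abundant and with large differences. Of 30 tested members 24 were higher in the ICM, 2 were lower and 4 were not called, with a median of 4.16. Sparc (ENSMUSG00000018593, GRCm38 chromosome 11, 55394500 to 55423183, minus strand), a matrix protein, stood at 3917, 5749, 3726, 5788 and 3324 CPM in the ICM, against 173, 7.81, 61.5, 50.2 and 23.6 CPM in the TE (log2 6.45 ± 0.48, adjusted p = 5.96e-09). Srgn, a granule proteoglycan, stood at 1439, 3107, 1152, 2934 and 1135 CPM in the ICM, against 35.0, 0, 1.92, 0 and 7.85 CPM in the TE (log2 7.79 ± 0.56). Amn, part of the receptor that takes up proteins with cubilin, stood at 269, 264, 117, 391 and 151 CPM for the ICM and 8.74, 0, 1.92, 0 and 0 CPM for the TE (log2 6.58 ± 0.48). The ICM libraries lay far above the TE libraries for all 3, and TE replicate 1 was the highest TE library for each.

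The lineage factors Gata4 (132, 158, 154, 155 and 80.1 CPM for the ICM, 24.5, 0, 7.69, 0 and 2.62 for the TE) and Sox17 (259.6, 182, 207, 217 and 365 CPM for the ICM and 20.98, 1.95, 3.84, 1.67 and 10.5 CPM for the TE) did not overlap either (log2 4.37 ± 0.54 and 5.01 ± 0.42). Leaving out litter 1, of which TE replicate 1 is a part, raised the log2 difference of Srgn to 9.78, of Gata4 to 5.69 and of Sox17 to 5.79. Amn then had 612 ICM counts and 1 TE count, a ratio of 603.2 with a counting interval of 107.9 to 23865. Sparc went to 7.08. Not every member of the list followed. Gata6, a further factor of the lineage, had 439 ICM counts and 373 TE counts, Fgfr1 163 and 190, and Nid1 345 and 564. The 2 members of the list that were lower were Soat1, which stores cholesterol as ester (log2 -1.55 ± 0.23), and Dab2, an adaptor for endocytosis (log2 -0.65 ± 0.19, adjusted p = 0.0135). The Dab2 call was lost without either library of litter 1.

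D10 ICM replicate 4 held most of the counts of Ttr, Apoa1 and Fgb, which code for proteins of the blood plasma. Ttr, which carries thyroid hormone, had 9, 59, 2, 1474 and 13 counts in D10 ICM replicates 1 to 5 and 0 in every TE library, which is at least 593.2-fold, or at least 56.5-fold without ICM replicate 4. Apoa1, the main protein of high density lipoprotein, had 1, 1, 0, 197 and 0 counts, so that 2 counts were left without replicate 4. Fgb, a fibrinogen chain, had 5, 62, 2, 287 and 13 counts, and none in the TE, which without replicate 4 is at least 55.8-fold. Of other plasma protein genes, the same library had 80 counts of Apom, 44 of Afp and 33 of Fgg. No other ICM library had more than 3, 1 and 1 of these. Counts were lower for Trf (27), Fga (11) and Apob (7), each also highest in this library among the ICM libraries. Rbp4 had 1 count there and 1 in TE replicate 2, too few to rank. Not every plasma protein gene followed, as Ahsg had 4, 6, 5, 2 and 11 counts in ICM replicates 1 to 5. Habp2 had 22, 46, 7, 59 and 14, where replicate 4 is also the deepest library. F5, in contrast, had 0, 1, 1, 47 and 0. Pga5, a pepsinogen, stood at 82.0, 178, 21.2, 1345 and 97.9 CPM in the ICM and had 0 counts in the TE, at least 569.5-fold. Gpc3, a proteoglycan of the cell surface, stood at 72.9, 159, 106, 1183 and 396 CPM in the ICM, against 1.75, 0, 1.92, 1.67 and 0 CPM in the TE, with a count ratio of 534.1 (182.4 to 2593). Both were highest in replicate 4, yet all ICM libraries lay above all TE libraries, and without replicate 4 Pga5 was at least 106.8-fold higher and the count ratio of Gpc3 was 153.7 (51.9 to 751.0). Nrk, Bex4, Stmn1, Hba-a1, Prss12, Igfbp4 and Reep6 were, with Ttr and Apoa1, among the 10 genes that set this library apart.

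Other genes with small adjusted p were found outside the lineage lists. Podxl, a sialomucin of apical membranes, stood at 369, 264, 74.3, 395 and 66.7 CPM in the ICM, against 10.5, 1.95, 1.92, 18.4 and 0 CPM in the TE (log2 5.12 ± 0.40, adjusted p = 1.10e-08). Hspb1, a small heat shock protein, stood at 391.7, 564, 281, 737 and 320.3 CPM for the ICM and 15.7, 1.95, 0, 13.4 and 5.23 CPM for the TE (log2 5.93 ± 0.46). At E4 the same difference was 1.58 for Podxl and 2.26 for Hspb1, and the change of the difference passed for Hspb1 (adjusted p = 0.00453) and missed for Podxl (adjusted p = 0.0631). Without litter 1 the Hspb1 difference was 6.51.

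Trophectoderm transcription factors were mostly higher in the TE, by smaller amounts. Of 20 tested members 12 were lower in the ICM and 3 higher, with a median of -0.996. Gata3, which drives trophectoderm fate, stood at 524, 677, 865, 402 and 627 CPM in the ICM, against 1962, 1616, 2187, 1998 and 2117 CPM in the TE (log2 -1.71 ± 0.20, adjusted p = 1.33e-06). Cdx2, a caudal-type factor of the same lineage, stood at 31.9, 58.4, 31.8, 32.2 and 26.7 CPM for the ICM and 90.9, 93.8, 67.3, 105 and 94.2 CPM for the TE (log2 -1.32 ± 0.27). Elf3 (log2 -2.05 ± 0.20) and Grhl1 (log2 -2.14 ± 0.30), factors of epithelial cells, were higher in the TE too. The groups did not overlap for any of the 4. Eomes, a T-box factor, was higher in the TE (log2 -0.97 ± 0.21), with overlap, since ICM replicate 3 at 318 CPM lay above TE replicate 5 at 306.

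The 3 members that were higher in the ICM were Id1, Tcf7l1 and Elf5. Id1, an inhibitor of basic helix-loop-helix factors and a BMP target, stood at 54.7, 103, 0, 135 and 48.9 CPM in the ICM, against 1.75, 1.95, 0, 0 and 5.23 CPM in the TE, so that ICM replicate 3 at 0 overlapped with the TE. Tcf7l1, a repressor in the Wnt pathway, was higher in each ICM library than in any TE library (log2 1.995 ± 0.28). Elf5, an ETS factor known in trophoblast stem cells, stood at 209.5, 197, 95.5, 113 and 156 CPM in the ICM, against 47.2, 84.0, 53.8, 104 and 41.9 CPM in the TE (log2 1.18 ± 0.25, adjusted p = 0.00133). Its groups overlapped, and its difference at E4 was -0.07 (change of the difference 1.25, adjusted p = 0.0445).

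Genes of the epithelial sheet followed the same direction. Of 35 tested keratin, junction and polarity genes 16 were higher in the TE and 4 in the ICM, with a median of -0.63. The 16 fell to 10 without ICM replicate 4, 10 without TE replicate 1 and 9 without TE replicate 4, and the 4 to 2 without either library of litter 4. Krt7, a keratin of simple epithelia, stood at 27.3, 36.3, 218, 57.3 and 120.1 CPM in the ICM, against 378, 266, 705, 467 and 291 CPM in the TE (log2 -2.44 ± 0.32). Tinagl1 (log2 -1.83 ± 0.25), a matrix protein, and Msn (log2 -1.90 ± 0.30), which ties actin to the membrane, did not overlap between the tissues either. Its relative Ezr was called in the other direction, at 455, 415, 202, 513 and 507 CPM in the ICM, against 163, 205, 26.9, 238 and 91.6 CPM in the TE (log2 1.67 ± 0.26), with overlap. Krt8 was higher in the TE (log2 -1.15 ± 0.33, adjusted p = 0.0126), and the call was lost without either library of litter 1 or of litter 4.

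The trophectoderm pumps ions and lets water follow to fill the cavity. Of 16 tested fluid and ion transport genes 9 were higher in the TE and 3 in the ICM, with a median of -0.90. The water channels Aqp3 (50.1, 83.7, 271, 77.4 and 62.3 CPM for the ICM, 432, 287, 586, 316 and 484 for the TE) and Aqp9 (77.4, 117, 31.8, 58.3 and 71.2 CPM for the ICM and 308, 342, 386, 289.6 and 317 CPM for the TE) were higher in the TE (log2 -2.09 and -2.19). Scnn1a, a subunit of the epithelial sodium channel, stood at 4.55, 9.47, 21.2, 1.01 and 4.45 CPM in the ICM, against 99.7, 62.5, 78.8, 122 and 102 CPM in the TE (log2 -3.80 ± 0.52), and the difference was -4.30 to -3.03 with single libraries left out. All 3 were without overlap. The members higher in the ICM were Car2, a carbonic anhydrase, Slc12a2, a chloride cotransporter, and Aqp8, a further water channel. Car2 had 352 ICM counts and 1 TE count. Slc12a2 differed by 1.91 and Aqp8 by 2.29, and without ICM replicate 4 Aqp8 fell to 1.71.

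Connexins, which form gap junctions, went in both directions. Gjb2 (ENSMUSG00000046352, GRCm38 chromosome 14, 57098600 to 57104702, minus strand) stood at 41.0, 183, 31.8, 17.1 and 48.9 CPM in the ICM, against 2328, 2100.1, 3050.4, 1466 and 2620.0 CPM in the TE (log2 -5.41 ± 0.38, adjusted p = 2.48e-08). Gja1 stood at 50.1, 52.1, 79.6, 95.5 and 147 CPM in the ICM and had 3 counts over the TE, against 187, a ratio of 71.24 (24.0 to 348.6). Gjb5 was higher in the ICM as well (log2 1.52 ± 0.25). The groups did not overlap for these 3 connexins. Of the annexins, which bind membranes with calcium, Anxa6 (-2.09) and Anxa1 (-3.19) were higher in the TE. Without litter 2 the Gjb2 difference was -6.12 and that of Anxa1 -3.92. In the list of connexins and annexins, which also holds S100 proteins, 4 of 16 tested members were higher in the TE and 3 in the ICM. S100g, with 182 ICM counts and 6 TE counts, was among those higher in the ICM. Of 7 tested placental genes 2 were higher in each tissue, and the 2 higher in the TE became 1 without any library of litters 1 or 5. Plet1 was among those higher in the ICM (log2 3.34 ± 0.51, and 4.77 without TE replicate 4).

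The genes with the smallest adjusted p among those higher in the TE were led by Cidea, Psap and Gm2a. Cidea, a protein of lipid droplets, stood at 0, 3.16, 0, 3.02 and 4.45 CPM in the ICM, against 213, 123, 190.3, 90.4 and 70.7 CPM in the TE (log2 -5.35 ± 0.42, adjusted p = 1.16e-08). Psap, the precursor of the saposins that help degrade sphingolipids, stood at 132, 155, 165, 149.8 and 174 CPM for the ICM and 1023, 809, 1557, 1028 and 735 CPM for the TE (log2 -2.68 ± 0.21). Gm2a, the activator of ganglioside breakdown, stood at 401, 524, 632, 523 and 463 CPM for the ICM and 3328, 2688, 3235, 3289 and 2861 CPM for the TE (log2 -2.61 ± 0.22). No ICM library reached a TE library for any of the 3. Tspan8, a tetraspanin (-2.27), Adam19, a membrane protease (-2.61), Mbnl3, a regulator of splicing (-2.70), Slc15a2, a peptide transporter (-3.19), Pip5k1b, a lipid kinase (-3.02) and Serpine2, a protease inhibitor (-3.07), were also higher in the TE without overlap. The most abundant of the TE genes was Adh1 (ENSMUSG00000074207, GRCm38 chromosome 3, 138260991 to 138290698, plus strand), an alcohol dehydrogenase that also acts on retinol, at 21072, 15540.5, 27155, 10599.9 and 26213 CPM in the TE and 1995, 4761, 1868, 1969 and 1166 in the ICM (log2 -3.18 ± 0.47). Ndrg1 (log2 -2.45 ± 0.29) and Lgals1, a galectin (log2 -1.39 ± 0.21), were abundant too, and both were without overlap.

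The gene lists differed in how evenly they split. The share of members called in each direction can be read against 13.8% and 13.9% over all protein-coding genes. Cholesterol synthesis, mitosis, DNA replication and ribosome biogenesis held calls in the ICM direction only, and the list of lipid droplets and oxidation in the TE direction only. The ribosome biogenesis list gained 1 call in the TE direction without either library of litter 2. The 5 signalling lists held calls in both.

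Counts over a list depend on depth, as fewer members are tested and called in thinned libraries. In these, 9 of 31 tested DNA replication genes were higher in the ICM, beside 22 of 44 at full depth. The counts higher in the ICM and in the TE became 3 and 1 of 11 for FGF and MAPK, 4 and 1 of 9 for Nodal and BMP, 2 and 2 of 9 for Wnt, 3 and 2 of 6 for LIF and STAT3 and 0 and 3 of 13 for Hippo signalling. They became 2 and 12 of 26 for keratins and junctions, 2 and 1 of 4 for placental genes, 7 and 4 of 19 for amino acid transport, 0 and 13 of 70 for the respiratory chain and 2 and 8 of 35 for lysosomes. For CDK inhibitors and p53 targets they became 2 and 0 of 11, for chromatin regulators 10 and 3 of 28 and for imprinted genes 3 and 1 of 11. Without the litter block, the counts higher in the TE became 2 for Hippo signalling, 1 for imprinted genes, 1 for primitive endoderm genes and 0 for CDK inhibitors and p53 targets, and the count higher in the ICM became 2 for the respiratory chain.

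**Figure D3:**
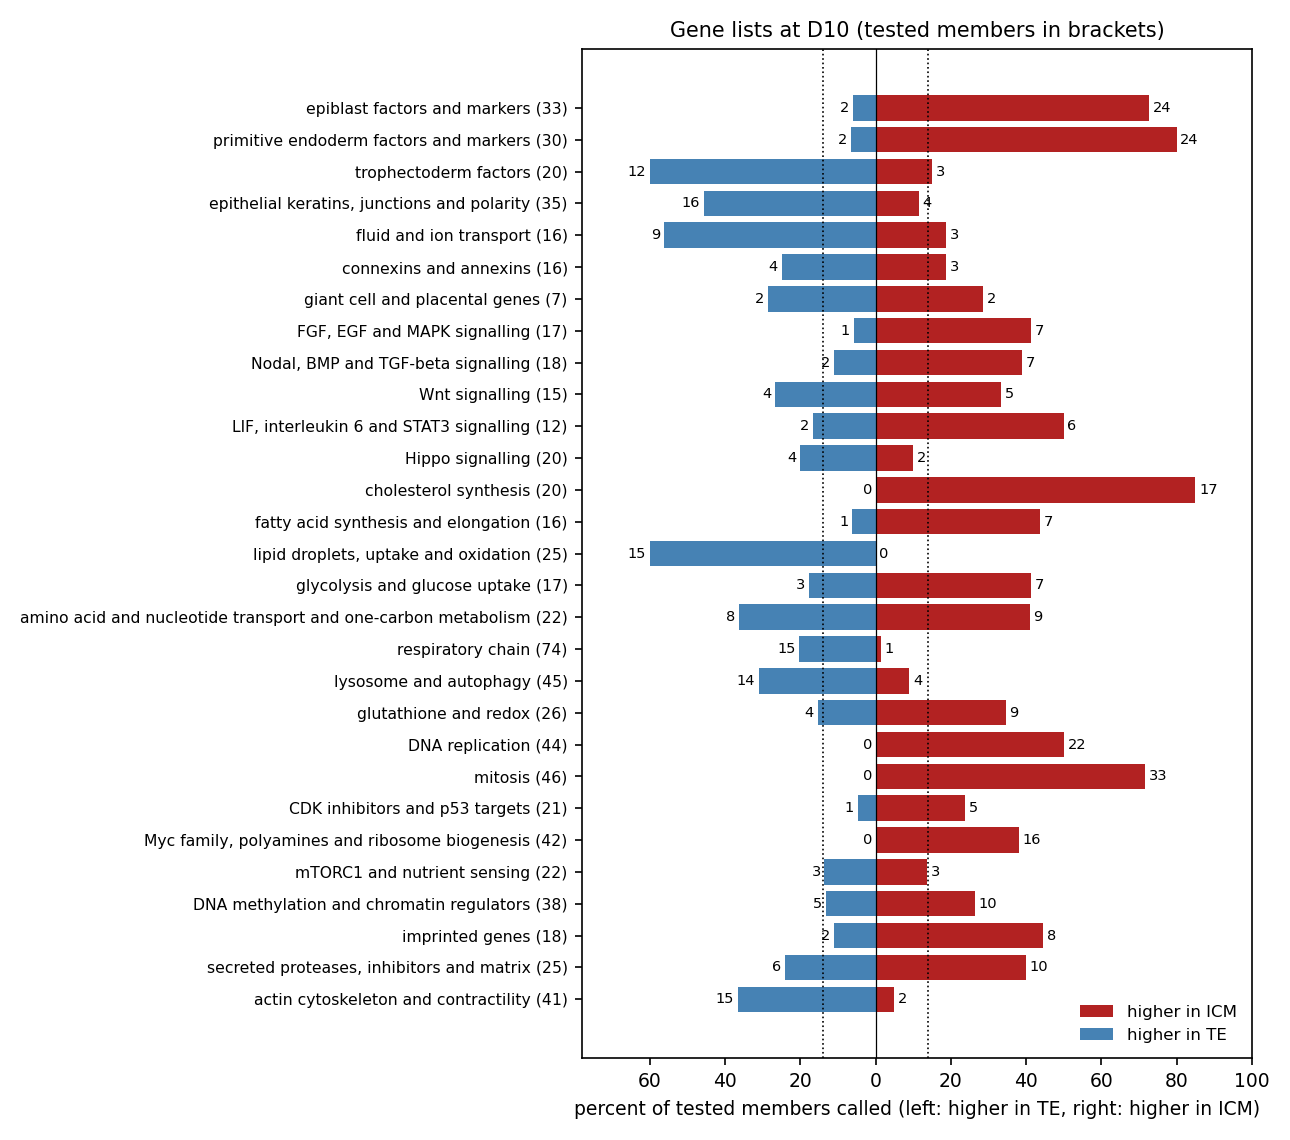
Percent of the tested members of each of 29 gene lists called higher in the ICM (right, red) or higher in the TE (left, blue) at D10, with the number of calls beside each bar and the tested members in brackets. Dotted lines mark the share over all protein-coding genes (13.8% and 13.9%); cholesterol synthesis has 17 of 20 to the right and 0 to the left.

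In the FGF and MAPK list 7 of 17 tested members were higher in the ICM and 1 in the TE. Spry2, a feedback inhibitor, stood at 54.7, 112, 133, 112 and 254 CPM in the ICM, against 14.0, 5.86, 0, 8.37 and 5.23 CPM in the TE (log2 4.08 ± 0.42). Etv5, a transcription factor downstream of MAPK, stood at 50.1, 23.7, 47.8, 28.2 and 48.9 CPM for the ICM and 0, 3.91, 1.92, 1.67 and 0 CPM for the TE (log2 4.35 ± 0.56). The receptor Fgfr2 was the member higher in the TE (log2 -0.95 ± 0.22, adjusted p = 0.00266), with overlap. The 1 member became 2 in most fits with a single library left out. In the Nodal and BMP list 7 of 18 were higher in the ICM and 2 in the TE. Bmp4, a ligand, had 79 ICM counts and 1 TE count. Id2, a target of BMP, was higher in the TE at 1388, 2039.5, 1628, 1488 and 1406 CPM against 869.9, 1176, 780.2, 649.6 and 472 (log2 -1.05 ± 0.19). The second, the receptor Acvr2b, lost its call (adjusted p = 0.0316) without any library of litters 1, 3 or 4.

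In the LIF and STAT3 list the ligand was higher in the TE and its receptor in the ICM, though both were counted in every library. Lif, a cytokine known from embryo culture and implantation, stood at 18.2, 56.8, 58.4, 22.1 and 48.9 CPM in the ICM, against 259, 147, 221, 243 and 188 CPM in the TE (log2 -2.40 ± 0.38). Its receptor Lifr stood at 82.0, 45.8, 95.5, 46.3 and 102 CPM in the ICM, against 19.2, 17.6, 11.5, 28.5 and 5.23 CPM in the TE (log2 1.995 ± 0.37). Both were without overlap. The feedback inhibitors Socs2 (95.6, 96.3, 53.1, 63.4 and 97.9 CPM for the ICM and 28.0, 25.4, 7.69, 1.67 and 15.7 CPM for the TE) and Socs3 (log2 1.71 ± 0.28) were higher in the ICM, while Stat3, the transcription factor, was higher in the TE at 315, 264, 486, 296 and 338 CPM against 137, 122, 191, 142 and 165 (log2 -1.15 ± 0.19). Over the list 6 of 12 tested members were higher in the ICM and 2 in the TE.

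The Wnt list split as 5 and 4 of 15. Dkk1, a secreted antagonist, stood at 214, 267, 165, 168 and 209 CPM in the ICM, against 10.5, 0, 0, 0 and 0 CPM in the TE, where all 6 counts were in replicate 1 (log2 6.35 ± 0.56). Without litter 1 it had 414 ICM counts and 0 TE counts, at least 136.0-fold. Sfrp1, another antagonist, had 133 ICM counts and 0 TE counts. The ligand Wnt3a (0, 14.2, 10.6, 2.01 and 0 CPM for the ICM, 49.0, 27.3, 61.5, 31.8 and 23.6 for the TE, log2 -2.61 ± 0.51), its carrier Wls (log2 -1.11 ± 0.24) and Dkkl1 (log2 -2.53 ± 0.29) were higher in the TE. Without litter 2 the Wnt3a difference was -3.73. In the Hippo list 4 of 20 were higher in the TE and 2 in the ICM. The TEAD factors Tead3 (log2 -2.26 ± 0.37), Tead2 (log2 -1.12 ± 0.26) and Tead1 (log2 -0.66 ± 0.21, adjusted p = 0.0228) were among the 4, which became 2 without any library of litters 2 or 4. Ccn1, a target of YAP and TEAD, was higher in the ICM at 123, 101.1, 69.0, 156 and 120.1 CPM against 22.7, 11.7, 1.92, 65.3 and 10.5 (log2 2.50 ± 0.38).

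The lipid lists divided between the tissues. Of 20 tested genes of cholesterol synthesis and uptake 17 were higher in the ICM and 0 in the TE, with a median of 2.48, which is 85.0% of the list beside 13.8% over all genes. Cyp51 (ENSMUSG00000001467, GRCm38 chromosome 5, 4081145 to 4104746, minus strand), which removes a methyl group from lanosterol, stood at 214, 196, 26.5, 427 and 120.1 CPM in the ICM, against 10.5, 11.7, 3.84, 5.02 and 0 CPM in the TE (log2 4.83 ± 0.42, adjusted p = 4.21e-08). Sc5d, a late desaturase, stood at 54.7, 72.6, 21.2, 189 and 107 CPM for the ICM and 1.75, 3.91, 1.92, 8.37 and 5.23 CPM for the TE (log2 4.29 ± 0.33). Srebf2, the transcription factor of the pathway, stood at 191, 83.7, 37.2, 144 and 116 CPM for the ICM and 6.99, 3.91, 5.77, 5.02 and 2.62 CPM for the TE (log2 4.42 ± 0.39). The groups did not overlap for these 3, and ICM replicate 3 was the lowest ICM library for each. At E4 the list had 0 members higher and 2 lower, with a median of -0.15, and a test of the change between the times (the interaction of tissue and time) called 14 of the 20 as higher at D10, beside 3.65% of all genes. The difference of Cyp51 changed by 4.33 (adjusted p = 6.96e-05).

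Of 16 tested genes of fatty acid synthesis and elongation 7 were higher in the ICM, 1 was higher in the TE and 8 were not called, with a median of 0.66. Fads1, a desaturase, stood at 155, 159, 42.5, 256 and 196 CPM in the ICM, against 1.75, 0, 0, 5.02 and 0 CPM in the TE, with 442 counts against 4 (log2 6.50 ± 0.42). Elovl5, an elongase, stood at 196, 115, 138, 132 and 125 CPM for the ICM and 12.2, 13.7, 3.84, 11.7 and 5.23 CPM for the TE (log2 3.84 ± 0.30). Fasn, fatty acid synthase, differed by 2.30 ± 0.25, with overlap. The member higher in the TE was Me1, malic enzyme (log2 -1.72 ± 0.32). The desaturase Scd1 and the elongases Elovl1 and Elovl7 were among the 8 not called.

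Genes of lipid droplets, uptake and oxidation went the other way. Of 25 tested 15 were higher in the TE and 0 in the ICM, with a median of -0.82, beside 13.9% higher in the TE over all genes. Besides Cidea they included Mgll, a monoglyceride lipase, at 0, 3.16, 0, 13.1 and 17.8 CPM in the ICM, against 59.5, 31.3, 49.97, 154 and 75.9 CPM in the TE (log2 -3.41 ± 0.42), and Plin2, a coat protein of droplets, at 82.0, 139, 122, 134 and 116 CPM for the ICM and 233, 189, 392.1, 288 and 251 CPM for the TE (log2 -1.14 ± 0.27). None of the 3 overlapped. At E4 14 members were higher in the TE and 2 in the ICM, with a median of -0.88.

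**Figure D4:**
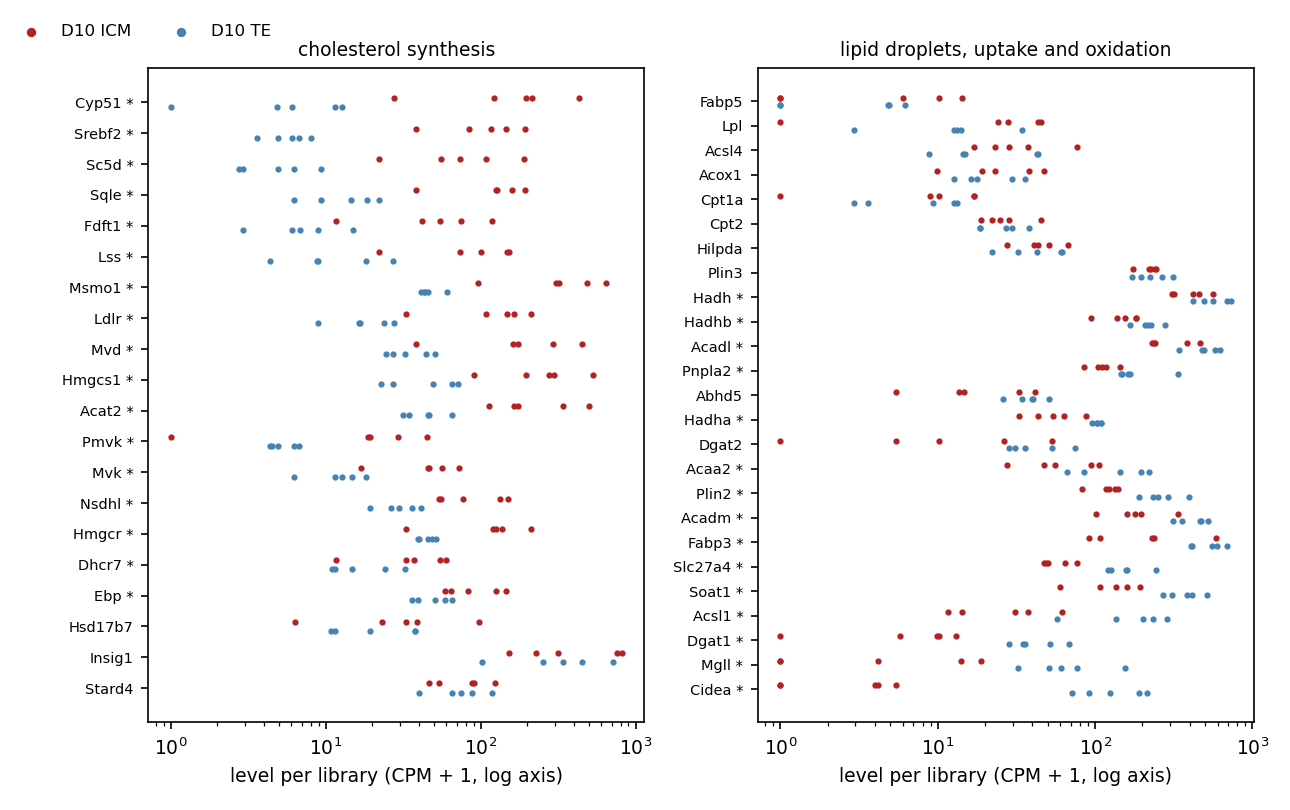
Level of each tested member of 2 lipid lists in the 5 D10 ICM (red) and 5 D10 TE (blue) libraries, in CPM plus 1 on a log axis, ordered by the log2 difference, with a star where the gene was called. On the left 17 of 20 cholesterol genes are called, all higher in the ICM; on the right 15 of 25 lipid droplet and oxidation genes are called, all higher in the TE.

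In the glycolysis list 7 of 17 tested genes were higher in the ICM and 3 in the TE, and 11 were higher in the ICM without TE replicate 5. Pkm, pyruvate kinase, stood at 1904, 1227, 754, 1061 and 814 CPM in the ICM, against 229, 125, 161, 164 and 168 CPM in the TE (log2 2.72 ± 0.24). Ldha, lactate dehydrogenase, stood at 1193, 632, 669, 1073 and 445 CPM for the ICM and 97.9, 111, 121, 83.7 and 91.6 CPM for the TE (log2 2.92 ± 0.28), and Tkt, of the pentose phosphate path, was higher in the ICM too (log2 1.84 ± 0.19). The 3 genes higher in the TE were Slc2a3, Hk2 and Slc16a1. The glucose transporter Slc2a3 stood at 1221, 913, 1162, 902 and 1041 CPM in the ICM, against 1871, 1549, 1822, 1644 and 1971 CPM in the TE (log2 -0.76 ± 0.19). Hexokinase Hk2 differed by -0.76 ± 0.19 and the lactate and pyruvate transporter Slc16a1 by -0.59 ± 0.19. Slc16a1 lost its call without any library of litters 2 or 3. Slc2a1, another glucose transporter, had 187 ICM and 277 TE counts and was not among the 3. Slc2a3 did not overlap between the tissues and Hk2 did.

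Amino acid transporters split by gene. Slc7a1, for cationic amino acids, stood at 200.4, 163, 69.0, 114 and 209 CPM in the ICM, against 24.5, 13.7, 0, 8.37 and 5.23 CPM in the TE (log2 3.84 ± 0.37), and without litter 1 the difference was 4.23. Slc38a2, for small neutral amino acids, was higher in the ICM as well (log2 2.70 ± 0.25). Slc43a2, a carrier of large neutral amino acids, stood at 13.7, 12.6, 69.0, 17.1 and 53.4 CPM for the ICM and 161, 113, 161, 176 and 173 CPM for the TE (log2 -2.53 ± 0.31), higher in the TE. Tdh, threonine dehydrogenase, an enzyme known from mouse pluripotent cells, had 880 ICM counts and 10 TE counts, all 10 in replicate 1. The list had 9 of 22 members higher in the ICM and 8 in the TE, and the 8 became 5 without any library of litters 4 or 5.

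Of 74 tested genes of the respiratory chain 15 were higher in the TE and 1 in the ICM, with a median of -0.31. The 15 became 9 without either library of litter 1 and 6 without either library of litter 5. Ndufs5 stood at 13.7, 60.002, 47.8, 47.3 and 13.3 CPM in the ICM, against 128, 141, 92.3, 134 and 165 CPM in the TE (log2 -1.79 ± 0.29) and Ndufa1, also of complex I, at 132, 249.5, 191, 244 and 89.0 CPM for the ICM and 379, 365, 340.2, 427 and 450.2 CPM for the TE (log2 -1.14 ± 0.22), both without overlap. The member higher in the ICM, Ndufv1, lost its call without any library of litters 1, 2 or 4, and without litter 5 there were 2 such members. In the lysosome list 14 of 45 were higher in the TE and 4 in the ICM, and the 4 became 2 without ICM replicate 4. Laptm4b, a lysosomal membrane protein (log2 -2.03 ± 0.27), and Gla, a galactosidase (log2 -1.16 ± 0.23), joined Psap. Gm2a is not a member of this list. Ctsh, a cathepsin, was higher in the ICM at 137, 188, 58.4, 802 and 129 CPM against 12.2, 48.8, 1.92, 13.4 and 10.5, most of all in replicate 4, and its log2 difference of 3.72 ± 0.41 was 2.91 without TE replicate 4 and 4.64 without ICM replicate 2. Ctsl stood at 1279.8, 2425, 1486, 3512 and 1215 CPM in the ICM, against 691, 875, 652, 551 and 461 CPM in the TE (log2 1.52 ± 0.23).

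Of 26 tested glutathione and redox genes 9 were higher in the ICM and 4 in the TE, and the 9 became 4 without either library of litter 4. Sod1, a superoxide dismutase, stood at 383, 308, 239, 335 and 516 CPM in the ICM, against 92.7, 160.2, 57.7, 78.7 and 73.3 CPM in the TE (log2 1.95 ± 0.22). The glutathione transferases did not go 1 way. Gstm5 stood at 9.11, 42.6, 37.2, 28.2 and 17.8 CPM in the ICM, against 372, 252, 254, 196 and 421 CPM in the TE (log2 -3.25 ± 0.31), and Gsta4 at 237, 240.0, 265, 185 and 263 CPM for the ICM and 71.7, 117, 53.8, 70.3 and 91.6 CPM for the TE (log2 1.56 ± 0.20), both without overlap. Txnip, which binds thioredoxin and curbs glucose uptake, ran from 13.5 to 551 CPM among the TE libraries and from 0 to 88.5 in the ICM. Within each litter it was higher in the TE (log2 -3.03 ± 0.33), although the groups overlapped.

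Genes of cell division were higher in the ICM. Of 46 tested mitosis genes 33 were higher and 0 lower, with a median of 1.24, which is 71.7% of the list beside 13.8% over all genes. Without ICM replicate 4 the 33 became 20. Plk1, a kinase of mitotic entry, stood at 86.5, 61.6, 63.7, 184 and 89.0 CPM in the ICM, against 20.98, 11.7, 5.77, 0 and 13.1 CPM in the TE (log2 3.23 ± 0.52, and 2.51 without ICM replicate 4). Ube2c, which helps destroy cyclins, stood at 182, 178, 180.5, 338 and 97.9 CPM for the ICM and 42.0, 64.5, 9.61, 20.1 and 44.5 CPM for the TE (log2 2.47 ± 0.42). Ncaph, a condensin subunit, stood at 105, 126, 69.0, 109 and 129 CPM for the ICM and 36.7, 46.9, 15.4, 28.5 and 23.6 CPM for the TE (log2 1.83 ± 0.24). Cdk1 stood at 442, 458, 313, 459.5 and 311 CPM for the ICM and 217, 201, 34.6, 56.9 and 131 CPM for the TE (log2 1.84 ± 0.36) and Espl1, the separase, at 105, 48.9, 53.1, 45.3 and 44.5 CPM for the ICM and 35.0, 17.6, 7.69, 3.35 and 31.4 CPM for the TE (log2 1.79 ± 0.36). The tissues did not overlap for these 5. At E4 the list had 19 higher and 0 lower, with a median of 0.81.

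Of 44 tested DNA replication genes 22 were higher in the ICM and 0 lower, with a median of 0.75, and with single libraries left out 15 to 20 were higher. Gins1, of the replicative helicase, stood at 114, 141, 133, 119.7 and 165 CPM in the ICM, against 24.5, 29.3, 21.1, 25.1 and 34.0 CPM in the TE (log2 2.31 ± 0.26). Cdt1, a licensing factor, stood at 228, 216, 180.5, 139.8 and 276 CPM for the ICM and 82.2, 91.8, 48.1, 50.2 and 94.2 CPM for the TE (log2 1.51 ± 0.20), and Rrm2, which makes deoxynucleotides, differed by 1.42 ± 0.19. Among CDK inhibitors and p53 targets 5 of 21 were higher in the ICM and 1 in the TE, and the 5 became 2 without ICM replicate 4 and 3 without TE replicate 4, and the 1 was lost without any D10 library of litters 1, 2, 3 or 5 and without E4 ICM replicates 1 or 2. Cdkn1b, an inhibitor of the cell cycle, was higher in the ICM with the division genes, at 45.5, 60.002, 79.6, 60.3 and 75.6 CPM against 38.5, 5.86, 19.2, 11.7 and 18.3 (log2 1.88 ± 0.41). Trp53 was as well (log2 1.43 ± 0.28).

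Promoters of mitosis genes are known to share a CCAAT box, bound by NF-Y, and a cell cycle homology region, so these letters were counted. The motifs searched were CCAAT and TTTGAA on both strands, in a window from 250 bases before to 50 after the start, with 1 RefSeq window of build GRCm38.p6 for each gene. Of the 40 tested mitosis genes with a window, 72.5% held CCAAT, 72.5% held TTTGAA and 62.5% held both. Among the 5403 tested protein-coding genes with a window the shares were 39.2%, 11.5% and 5.3%. Genes higher in the ICM held both in 10.7% of 738 windows and genes higher in the TE in 2.7% of 731. Within the mitosis list the pair was in 64.3% of the genes that were higher and 58.3% of those not called. The 250 bases before the start are printed for the 3 called genes of smallest adjusted p with both motifs there, and for Ncaph, which has neither in its window. Capitals mark CCAAT and TTTGAA and their reverse complements.
Ube2c, chr2:164769679-164769928, plus strand: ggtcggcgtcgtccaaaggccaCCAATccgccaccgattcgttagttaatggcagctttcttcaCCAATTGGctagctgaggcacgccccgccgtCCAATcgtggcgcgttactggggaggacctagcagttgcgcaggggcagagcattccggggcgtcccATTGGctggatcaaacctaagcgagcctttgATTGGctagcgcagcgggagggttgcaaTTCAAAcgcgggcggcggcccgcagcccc
Cdk1, chr10:69352913-69353162, minus strand: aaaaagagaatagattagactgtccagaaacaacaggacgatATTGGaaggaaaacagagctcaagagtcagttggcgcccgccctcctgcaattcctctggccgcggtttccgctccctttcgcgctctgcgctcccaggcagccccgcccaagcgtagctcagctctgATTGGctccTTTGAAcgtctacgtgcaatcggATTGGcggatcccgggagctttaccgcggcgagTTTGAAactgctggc
Espl1, chr15:102296043-102296292, plus strand: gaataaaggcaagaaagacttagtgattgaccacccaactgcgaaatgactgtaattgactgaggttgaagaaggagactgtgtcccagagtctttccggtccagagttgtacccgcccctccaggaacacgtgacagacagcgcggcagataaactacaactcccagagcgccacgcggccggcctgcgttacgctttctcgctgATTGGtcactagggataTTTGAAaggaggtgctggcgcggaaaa
Ncaph, chr2:127133955-127134204, minus strand: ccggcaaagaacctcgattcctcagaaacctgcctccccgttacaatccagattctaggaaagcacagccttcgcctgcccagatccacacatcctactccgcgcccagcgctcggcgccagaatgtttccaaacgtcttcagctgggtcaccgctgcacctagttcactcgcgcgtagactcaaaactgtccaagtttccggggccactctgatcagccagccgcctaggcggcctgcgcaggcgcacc
A match describes these letters only and is no measure of binding. CCAAT was also in 86.7% of 15 windows of the cholesterol list and 67.6% of 37 of the DNA replication list, where TTTGAA was in 6.7% and 13.5%.

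Ribosome and growth genes differed less. Of 42 tested members of the Myc and ribosome biogenesis list 16 were higher in the ICM and 0 lower, with a median of 0.42. The 16 became 6 and 7 without ICM and TE replicate 1, and 9 and 10 without ICM and TE replicate 4. Odc1, the first enzyme of polyamine synthesis (log2 1.85 ± 0.36), and Srm, which makes spermidine, at 305, 363, 276, 372 and 285 CPM in the ICM, against 194, 172, 75.0, 174 and 157 CPM in the TE (log2 1.091 ± 0.23), were among them. Of 76 cytoplasmic ribosomal protein genes, counted after their values were seen, 16 were higher and 0 lower, with a median of 0.13. Rps15 stood at 5493, 5970.2, 6937, 3379 and 5998 CPM in the ICM, against 1483, 1543, 1649, 998 and 1856 CPM in the TE (log2 1.87 ± 0.17) and Rpl37 at 2136, 4639, 5589, 2469.7 and 4778 CPM for the ICM and 771, 990.4, 953, 649 and 1267 CPM for the TE (log2 2.02 ± 0.18). Ribosomal protein genes have many near-identical copies, between which the counting could split reads, so these 2 are uncertain. In the mTORC1 list 3 of 22 were higher in each tissue, which is 13.6% each way, and the 3 higher in the ICM became 1 without either library of litter 1.

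Of 38 tested chromatin regulators 10 were higher in the ICM and 5 in the TE, and the 5 became 3 without any library of litters 3 or 4. Dnmt3l, the partner of the de novo DNA methyltransferases, stood at 259.6, 270.0, 276, 311 and 285 CPM in the ICM, against 52.5, 41.0, 11.5, 30.1 and 36.6 CPM in the TE (log2 3.06 ± 0.31, adjusted p = 2.39e-07). Its difference at E4 was -0.01. Hmgn2, a nucleosome-binding protein, stood at 150.3, 365, 180.5, 461 and 191 CPM for the ICM and 29.7, 44.9, 57.7, 23.4 and 26.2 CPM for the TE (log2 2.84 ± 0.29). Macroh2a1, a histone variant of silent chromatin, was higher in the TE at 334, 256, 346, 331 and 343 CPM against 150.3, 194, 100.8, 119.7 and 80.1 (log2 -1.32 ± 0.25).

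Of 18 tested imprinted genes, noncoding RNAs included, 8 were higher in the ICM and 2 in the TE. Peg10 stood at 123, 104, 37.2, 518 and 48.9 CPM in the ICM, against 6.99, 0, 1.92, 31.8 and 0 CPM in the TE (log2 4.41 ± 0.43), highest in replicate 4 of both tissues. Peg3 stood at 155, 197, 169.8, 199 and 231 CPM for the ICM and 31.5, 168, 44.2, 10.0 and 36.6 CPM for the TE (log2 2.05 ± 0.35), with TE replicate 2 among the ICM values. Without litter 2 the Peg3 difference was 2.71. The 2 members higher in the TE were Slc38a4 (log2 -1.03 ± 0.21) and Snrpn, whose call was lost without any library of litters 1, 2 or 5. Meg3, a noncoding RNA of this list, is no protein-coding gene, and stood at 191, 20.5, 5.31, 75.4 and 169 CPM in the ICM, against 8.74, 0, 1.92, 0 and 0 CPM in the TE.

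Of 41 tested genes of the actin cytoskeleton 15 were higher in the TE and 2 in the ICM, with a median of -0.50. At E4 30 were higher in the TE and 3 in the ICM, with a median of -1.02. Lcp1, a bundling protein, stood at 446, 949, 807, 522 and 863 CPM in the ICM, against 2845, 2114, 1797, 2504 and 2327 CPM in the TE (log2 -1.73 ± 0.22), and the calponins Cnn3 (log2 -1.27 ± 0.17) and Cnn2 (log2 -1.60 ± 0.21) were higher in the TE without overlap. Fscn1, another bundling protein, was higher in the ICM at 118, 93.2, 47.8, 269 and 71.2 CPM against 6.99, 3.91, 3.84, 1.67 and 0 (log2 5.004 ± 0.42), and without ICM replicate 4 by 4.30. In the list of proteases, inhibitors and matrix 10 of 25 were higher in the ICM and 6 in the TE. Serpinh1, a collagen chaperone, stood at 209.5, 205, 180.5, 342 and 84.5 CPM in the ICM, against 15.7, 0, 1.92, 1.67 and 0 CPM in the TE (log2 5.63 ± 0.54). Without litter 1 it had 523 ICM counts and 2 TE counts, a ratio of 257.7 (71.0 to 2134). Prss8, a channel-activating protease (log2 -1.73 ± 0.28), was higher in the TE.

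The D10 difference was then set beside that at E4, where 1163 protein-coding genes (17.4%) were higher in the ICM and 1082 (16.2%) in the TE. Of the 924 genes higher in the D10 ICM, 510 (55.2%) were called the same way at E4 and 20 the other way, and the 510 are 43.9% of the E4 calls. Of the 929 higher in the D10 TE, 546 (58.8%) were called the same way, which is 50.5% of the E4 calls, and 17 the other way. The change of the difference itself was tested with the interaction of tissue and time. It was higher at D10 for 244 genes (3.65%) and lower for 175 (2.62%). The 175 fell to between 92 and 116 without D10 ICM or TE replicate 2, E4 ICM replicates 2, 4 or 5, or E4 TE replicates 2 to 5. In thinned libraries the counts were 141 and 92.

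Rpl37, one of the genes named for the smallest adjusted p of the change, had a difference of -0.58 at E4 and 2.02 at D10 (change 2.60, adjusted p = 1.06e-06). Gsta4 turned from -0.88 to 1.56 (change 2.44) and Rps27rt from -1.36 to 0.93. Lrp2, the endocytic receptor megalin, stood at 150.3, 284, 117, 659 and 97.9 CPM in the D10 ICM and 10.5, 0, 3.84, 1.67 and 2.62 in the D10 TE, and its difference went from -1.02 to 5.91 (change 6.93, adjusted p = 1.83e-05). Syt15 and Serf2, higher in the TE at E4 (-5.65 and -3.23), were not called at D10 (0.38 and 0.55). In the other direction the amino acid carriers Slc1a5 (3.73 to -0.97) and Slc7a3 (1.10 to -1.32) went from higher in the ICM to higher in the TE. The D10 call of Slc1a5 was lost without any library of litters 1, 3 or 5. Alpl, alkaline phosphatase, stood at 72.9, 93.2, 63.7, 243 and 66.7 CPM in the D10 ICM and 596, 679.8, 625, 527 and 518 in the D10 TE (log2 -2.54 ± 0.30, 0.50 at E4). Baz2b went from 0.79 to -2.10 and Bcap31 from 0.56 to -1.01. Uhrf1, which guides maintenance DNA methylation, was higher in the E4 ICM by 3.18 and differed by 0.41 at D10 (adjusted p = 0.341).

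**Figure D5:**
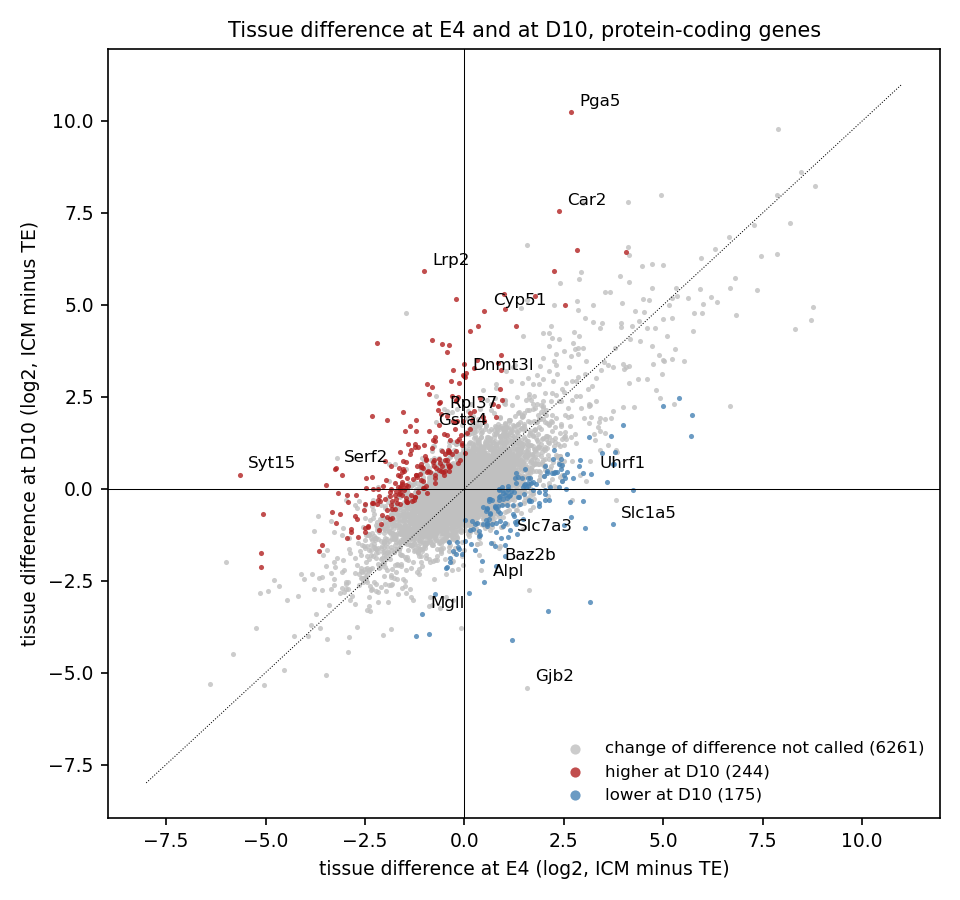
Log2 difference of ICM minus TE at E4 (horizontal) and at D10 (vertical) for each tested protein-coding gene, with equality as a dotted line. Red points (244) have a difference that was higher at D10 and blue points (175) one that was lower, by the interaction test; Cyp51 (0.50 at E4, 4.83 at D10) and Dnmt3l (-0.01 and 3.06) lie far above the line, and Alpl (0.50 and -2.54) far below it.

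Genes of other cells were counted too. Wfdc2, a gene of uterine epithelium, was higher in the TE at 376, 379, 409, 439 and 529 CPM against 155, 186, 159, 125 and 298 (log2 -1.26 ± 0.22), and Fgf10, of the uterine stroma list, was higher in the ICM with 226 counts against 10. Muc1 of that list had 27 ICM and 51 TE counts and Esr1 5 and 16, and each of the other 9 genes, Ltf, Pgr, Col1a1 and Col3a1 among them, had 3 counts or fewer in either tissue. The 13 genes of the list summed to 244.4 to 476.1 CPM in the ICM libraries and 420.0 to 547.0 in the TE libraries, and their part in the differences was not tested. Hba-a1, a globin, had 124 of its 127 ICM counts in replicate 4, where Hbb-bs and Alas2 did not follow (1 and 0 counts over the ICM). Of the blood, endothelial and immune list no gene was tested, and Ptprc and Tie1 had at most 1 count in either tissue. Cdh5 had 2 ICM and 26 TE counts, Itgam 1 and 12, Pecam1 11 and 17, Cd68 13 and 13, Csf1r 9 and 2, and Kdr 4 and 0. Zp2, a zona pellucida gene of the oocyte list, had 74, 20, 59, 28 and 8 counts in the TE libraries and 4 over the ICM. Ooep, of the same list, was higher in the ICM at 9.11, 34.7, 42.5, 34.2 and 48.9 CPM against 3.50, 1.95, 3.84, 6.70 and 5.23 (log2 2.84 ± 0.46), and in the other direction at E4 (-0.94, change adjusted p = 0.000157).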

How the data were processed

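RNA of 20 wild type mouse libraries was read by 3′ barcoded sequencing, and the authors deposited raw counts per gene. Per the submitters' processing notes, the tools were HISAT2 2.2.1, featureCounts 2.0.1, Trim Galore 0.6.7 and UMI-tools, with builds GRCm38 and GRCh38. UMI collapsing, strand setting and annotation: not given in the sources used here. Genes were matched by ID to GENCODE M21 for biotype and position (21442 of 21470). Counts were fitted with edgeR 4.0.16 (R 4.3.3) over all 20 libraries, with TMM scaling, filterByExpr at a minimum count of 10, litter as a block and tissue within time. Adjustment was over 6943 genes tested, of which 6680 are protein-coding. Levels are counts per 1000000 of the TMM-scaled total.

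The pairing comes from the litter column of the deposited barcode list. Same-litter libraries deviated together with correlations of -0.03 to 0.29 at D10. The script was tested on simulated data. Alternatives were DESeq2 1.42.0, limma 3.58.1, other scaling and filters, thinning, no block, the D10 libraries alone and each library left out.

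Members and gene lists were chosen with earlier results of these data known. Genes named are lineage anchors, the genes of smallest adjusted p over all genes, per list and for the change between times, the most abundant called genes, and those counted in 1 tissue only. Those taken over all genes also had to be at or above the median level and keep their call with any single D10 library left out. Dppa5a, Tfcp2l1, Zfp42, Pou5f1, Cdk1, Espl1, Plin2, Ddx3y and the genes that set ICM replicate 4 apart were chosen after their values were seen. So were Gata6, Nid1, Fgfr1, Apoa1 and the other plasma protein genes beside Ttr and Fgb.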

Additional observations from a re-analysis of the deposited data

Results flagged for a closer look

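In 48 of 326 groups of 5 D10 libraries looked at, 1 library lay apart from the other 4. The measure is the gap from the extreme library to its neighbour as a share of the whole range, and values above 0.71 are given. For normally distributed values that limit flags about 1 in 20 groups. CPM values, above all those from few counts, need not be so distributed, so an excess over chance cannot be read from the 48. Many of the groups share libraries, and a share of 1.000 in the TE stands for a gene counted in only 1 library there.

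D10 ICM replicate 1 was the highest for Elovl5 (0.718), Espl1 (0.858) and Lefty2 (0.722). D10 ICM replicate 1 was the lowest for Cnn3 (0.790). D10 ICM replicate 2 was the highest for Adh1 (0.769), Cdx2 (0.827) and Gjb2 (0.808). D10 ICM replicate 3 was the highest for Aqp3 (0.848), Gla (0.750) and Laptm4b (0.790). D10 ICM replicate 4 was the highest for Alpl (0.836), Apoa1 (0.977), Bex4 (0.928), Ctsh (0.826), Dppa5a (0.769), Hba-a1 (0.927), Nrk (0.931), Peg10 (0.821), Pga5 (0.881), Plk1 (0.776), Sfrp1 (0.854), Slc12a2 (0.732) and Ttr (0.944). D10 ICM replicate 5 was the highest for Fgf4 (0.722).

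D10 TE replicate 1 was the highest for Amn (0.780), Car2 (1.000), Dkk1 (1.000), Lefty2 (1.000), Meg3 (0.780), Serpinh1 (0.878), Slc38a2 (0.721), Srgn (0.775), Tdh (1.000) and the primitive endoderm marker sum (0.720). D10 TE replicate 2 was the highest for Bmp4 (1.000), Ctsh (0.756), Peg3 (0.784) and Slc16a1 (0.852). D10 TE replicate 2 was the lowest for Macroh2a1 (0.838) and Slc43a2 (0.762). D10 TE replicate 3 was the highest for Cnn2 (0.735) and Serpine2 (0.744). D10 TE replicate 4 was the highest for Apoa1 (1.000), Peg10 (0.780), Plet1 (0.841) and the epiblast marker sum (0.803). D10 TE replicate 5 was the highest for Me1 (0.712). D10 TE replicate 5 was the lowest for Slc38a4 (0.789).

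For 41 genes described, the tissue difference itself changed between the times, by the interaction term of edgeR's fit at an adjusted p under 0.05. On the log2 scale the difference of ICM minus TE was higher at D10 than at E4 for Bex4 (5.38), Car2 (5.17), Ctsh (4.16), Cyp51 (4.33), Dnmt3l (3.07), Elf5 (1.25), Fads1 (3.67), Fasn (1.57), Fscn1 (2.48), Gjb5 (1.44), Gsta4 (2.44), Hspb1 (3.67), Lrp2 (6.93), Ndufv1 (1.16), Ooep (3.78), Peg10 (3.13), Pga5 (7.55), Plk1 (2.30), Rpl37 (2.60), Rps27rt (2.30), Sc5d (4.15), Serf2 (3.78), Slc2a3 (1.20), Slc38a2 (1.80), Sod1 (1.15), Sparc (2.40), Srebf2 (4.07), Syt15 (6.03) and Tkt (1.34). It was lower at D10 for Alpl (-3.03), Baz2b (-2.89), Bcap31 (-1.57), Lifr (-3.71), Mgll (-2.34), Mkrn1 (-1.07), Slc1a5 (-4.70), Slc7a3 (-2.42), Socs2 (-2.93), Trp53 (-2.27), Uhrf1 (-2.78) and Zfp42 (-1.25).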

How the results depend on the processing

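No result described changed direction under any alternative run. Most genes were named for a small adjusted p in these same libraries, so a stable direction was largely fixed by that choice. With libraries thinned to 1 total, 485 genes were higher in the D10 ICM and 517 in the TE, and 141 and 92 had a difference higher or lower at D10 than at E4. With a minimum count of 30, where fewer genes are tested, 596 and 613 were called between the D10 tissues. A fit of the D10 libraries alone, without the E4 libraries, gave 794 higher in the ICM and 778 higher in the TE. DESeq2 gave 116 genes with a difference lower at D10, and the cause was not tested. Without the replicate block 847 and 844 genes were called between the D10 tissues and 118 had a difference lower at D10. With single libraries left out, counts ran from 714 to 1021 higher in the ICM, 720 to 972 higher in the TE, 174 to 286 with a difference higher at D10 and 92 to 169 with one lower. Calls in all 10 fits without a D10 library were kept by 561 genes higher in the ICM and 575 higher in the TE. Leaving out either library of a litter removes that litter from the D10 comparison, since its partner is absorbed by the block.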
